A study of Mus musculus with 59 samples.

Results

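The comparison described here sets the paraventricular nucleus of the hypothalamus (PVN) against the nucleus of the solitary tract (NTS) in the brainstem, both from vehicle-treated mice. Its members are the 10 libraries labelled vehicle PVN and the 10 labelled vehicle NTS, 20 of the 59 libraries of the series. All animals were C57BL/6 mice; sex and age are not given in the sources used here. Each received an intraperitoneal injection of vehicle and was killed 4 h later, so every library of both groups carries the handling and the injection. The treated mice received the peptide combination named IP118/PY115 and gave 10 PVN and 10 NTS libraries. These were used to repeat the comparison and to set it against the vehicle result. All 59 libraries, with those of the arcuate nucleus included, entered the joint fit of the vehicle comparison. Frozen brains were cut at 10 µm, and laser capture took 4 mm2 of each region per animal, for sequencing of polyadenylated RNA. A captured area holds every cell type that lies in it, so it is not a preparation of neurons.

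The PVN is the part of the hypothalamus through which the brain drives the pituitary and the autonomic system. Its magnocellular neurons make vasopressin or oxytocin and release them into the blood in the posterior pituitary, and its parvocellular neurons make corticotropin-releasing hormone and thyrotropin-releasing hormone, which act on the anterior pituitary. The NTS is the first central relay of the vagus nerve: it receives signals from stomach, gut, heart and airways, and holds noradrenergic neurons and the neurons that make glucagon-like peptide in the brain. The nuclei are wired to each other, and both carry receptors for gut hormones. PVN arises in the forebrain and NTS in the hindbrain, and neurons keep part of the transcription factor code of their place of origin into adult life.

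Library totals ran from 3964093 to 16244376 counts in PVN (median 8612590) and from 6677086 to 27766549 in NTS (median 11018068). The mean log10 total was lower in PVN by 0.132 (two-sided permutation p = 0.155). Levels are CPM, counts scaled to 1e6 per TMM-adjusted library total. The PVN libraries carry 2 separate runs of library numbers and the NTS libraries a further one, so region and number run cannot be told apart; the labels do not call these runs batches. The labels also do not tie libraries to animals, although both regions were taken from each animal, so the tests treat PVN and NTS libraries as independent. The labels do not describe the replicates further. The edgeR p-values and SEs of the vehicle comparison rest on the spread between libraries within all groups of the series. These include the treated groups and those of the arcuate nucleus. Permutation p-values rest on vehicle PVN and NTS libraries alone.

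The library numbered 1 in each group stood apart in an activity gene. Fosb, an immediate early gene, was at 39.7 CPM in vehicle NTS library 1 and at 0.141 to 2.70 in the other 9, and at 21.5 CPM in vehicle PVN library 1 against 1.47 to 16.5 in the others. The treated libraries numbered 1 went the other way, at 3.34 CPM in PVN (others 10.96 to 48.4) and 0.857 in NTS (others 18.9 to 48.8). Results on activity genes are therefore given with and without these libraries, and the libraries were otherwise kept under their labels.

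The nuclei differed in most expressed genes, and in most of them by little. Of 14379 genes tested, 8064 (56.1% of those tested) differed at an adjusted p under 0.05 in edgeR's quasi-likelihood test with Benjamini-Hochberg adjustment (FDR), 4070 (28.3%) higher in PVN and 3994 (27.8%) higher in NTS. The median absolute log2 fold change of the called genes was 0.47, and 4296 of them (53.3%) were under 0.5. For 7232 genes (50.3%) the 95% interval of the log2 fold change lay entirely between -0.5 and 0.5. A difference of more than 2-fold was shown for 865 genes (6.02%), 341 higher in PVN (2.37%) and 524 higher in NTS (3.64%). In 1898 genes (13.2%) the libraries of the nuclei did not overlap, with all PVN libraries above all NTS libraries in 900 and below them in 998. Each count of called list members below is to be read against 28.3% higher in PVN and 27.8% higher in NTS. Statements on overlap are to be read against 13.2%.

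Libraries of one nucleus resembled each other more than libraries of the other. The correlation across genes of log2 CPM was 0.953 to 0.988 between PVN libraries (median 0.977), 0.962 to 0.988 between NTS libraries (median 0.978) and 0.898 to 0.927 between a PVN and an NTS library (median 0.915). The first principal component of the 20 libraries carried 59.8% of the variance and the second 5.43%. Genes higher in PVN had a median exonic length of 5635 bp, those higher in NTS 4010 bp and all tested genes 4517 bp.

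**Figure D1:**
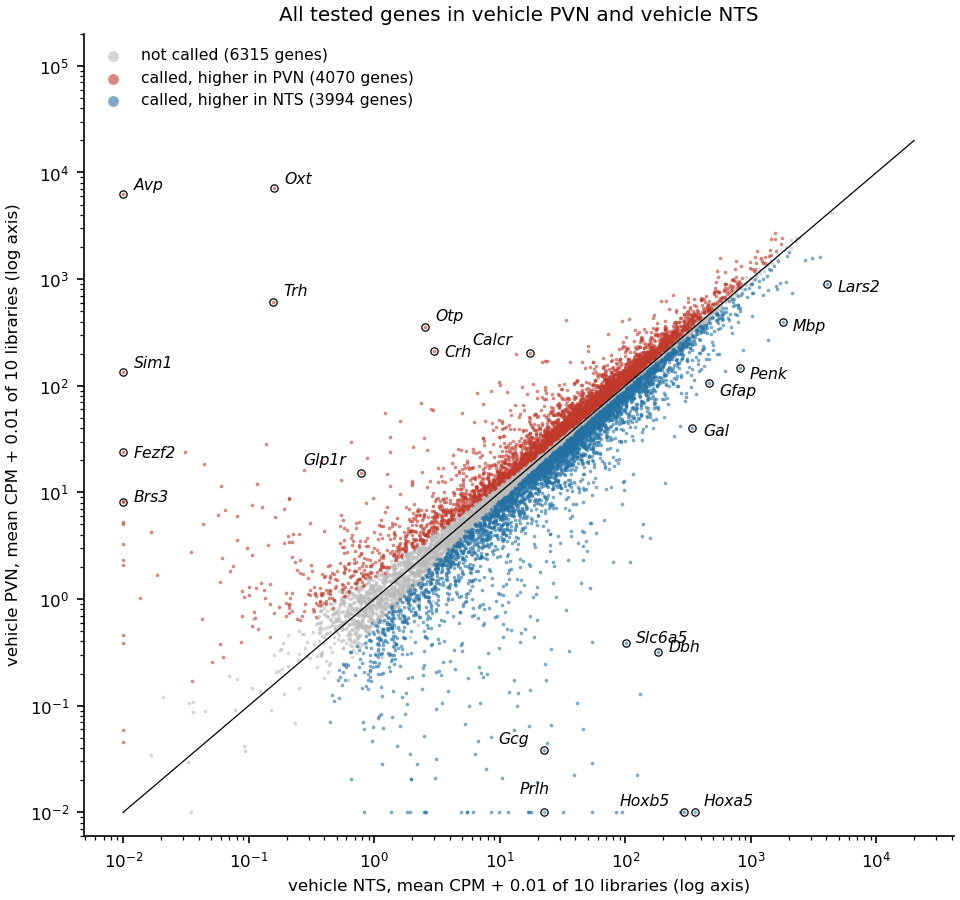
Each point is 1 of the 14379 tested genes, placed by its mean CPM plus 0.01 over the 10 vehicle NTS libraries (horizontal, log axis) and the 10 vehicle PVN libraries (vertical, log axis); the line marks equal levels. Red points were called higher in PVN (4070 genes), blue points higher in NTS (3994) and grey points not called (6315); most lie near the line, and the left and lower edges hold genes such as Avp and Hoxa5 with no count in one nucleus.

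Promoters are shown for 3 genes with large differences: Oxt and Avp, which lie 6419 bp apart between start sites and had the highest PVN levels of the hormone genes, and Dbh, the noradrenaline enzyme that separated the NTS libraries from all PVN libraries. Each run is the 250 bases before the annotated start in RefSeq, build GRCm38.p6, 5′ to 3′ on the gene's strand, and the capitals mark matches to 1 motif per promoter on either strand. For Oxt, chr2:130575919-130576168 on the plus strand, the motif is AGGTCA or its reverse complement TGACCT, the core site of nuclear hormone receptors. For Avp, chr2:130582589-130582838 on the minus strand, it is CACGTG, the E-box. For Dbh, chr2:27165257-27165506 on the plus strand, it is TAAT or its reverse complement ATTA, the core of homeodomain sites such as those of Phox2a, Otp and the Hox proteins. The Dbh position given further below, from the GENCODE annotation, begins before this window. By that annotation the window lies inside the gene.
Oxt: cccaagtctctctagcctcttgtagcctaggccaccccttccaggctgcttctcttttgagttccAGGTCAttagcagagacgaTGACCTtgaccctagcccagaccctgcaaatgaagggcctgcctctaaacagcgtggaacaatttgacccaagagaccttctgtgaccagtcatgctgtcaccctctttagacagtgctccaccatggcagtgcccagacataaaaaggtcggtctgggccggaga
Avp: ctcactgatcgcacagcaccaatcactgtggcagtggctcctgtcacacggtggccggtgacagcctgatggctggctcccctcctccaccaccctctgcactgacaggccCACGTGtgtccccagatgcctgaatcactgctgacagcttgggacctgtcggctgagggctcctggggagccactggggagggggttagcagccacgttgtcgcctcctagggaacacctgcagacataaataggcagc
Dbh: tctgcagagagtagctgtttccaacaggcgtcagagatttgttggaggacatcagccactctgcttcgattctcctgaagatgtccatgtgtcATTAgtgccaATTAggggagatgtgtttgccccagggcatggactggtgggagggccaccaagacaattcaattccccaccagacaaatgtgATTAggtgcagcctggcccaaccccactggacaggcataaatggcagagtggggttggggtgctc

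The 2 marked matches in Oxt began 185 and 166 bases before the start, the single match in Avp 139 bases, and the 3 in Dbh 157, 147 and 65 bases. Of the 32851 promoters in the RefSeq table, windows of the same length held AGGTCA in 14.02%, CACGTG in 6.02% and TAAT in 54.9%. Of the 20 genes with the largest ratio in each direction, 16 PVN and 13 NTS genes were in that table. TAAT was found in 9 of those 16 and 11 of those 13, AGGTCA in 2 and 4, and CACGTG in 2 and 2. A gene counted if any of its listed promoters held a match, while the percentages are shares of single promoters, so they are unlike measures. These counts describe letters in a window and not bound sites.

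The hypothalamic hormone genes were far higher in PVN. Avp, which encodes vasopressin (chr2:130580620-130582554, minus strand), ranged from 3128 to 12798 CPM in PVN with a median of 5391, and had no count in any NTS library. Set against the level of 3 counts over all NTS libraries, 0.0238 CPM, this was at least 262787-fold higher in PVN. Oxt, which encodes oxytocin (chr2:130576173-130577054, plus strand), ran from 4513 to 8888 CPM in PVN (median 7781) and from 0 to 0.440 in NTS (median 0.0735), a log2 fold change of 15.56 ± 1.31 (SE; FDR = 2.87e-15, edgeR). For both genes every PVN library lay far above every NTS library. Together they took 0.703% to 1.98% of all counts of a PVN library (median 1.33%). In bulk tissue such as this, a gene can be lower because fewer cells of a type were captured or because each held less RNA, and these cannot be told apart.

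The parvocellular releasing hormones followed. Trh, which encodes thyrotropin-releasing hormone (chr6:92242061-92244650, minus strand), was at 496 to 784 CPM in PVN (median 593) and at 0 to 0.666 in NTS (median 0.113), a log2 fold change of 11.88 ± 0.77 (FDR = 1.53e-19, edgeR). Its ratio of means, 4196-fold, became 6980-fold without NTS library 2. Crh, which encodes corticotropin-releasing hormone (chr3:19693401-19695396, minus strand), was at 154 to 314 CPM in PVN (median 206) and at 1.17 to 4.19 in NTS (median 2.99), a log2 fold change of 6.09 ± 0.43 (FDR = 3.27e-18, edgeR). Neither gene overlapped between the nuclei, and Crh was above 1 CPM in all 10 NTS libraries while Avp had no count in them. Per kilobase of exon, the mean PVN levels were 13215 CPM for Oxt, 10861 for Avp, 440 for Trh and 162 for Crh, so the magnocellular hormones stood well above the releasing hormones at equal length.

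Transcription factors of PVN development were higher in PVN to different degrees. Sim1, without which the vasopressin, oxytocin and releasing-hormone neurons do not form (chr10:50894754-50989152, plus strand), was at 110 to 158 CPM in PVN (median 140) and had no count in NTS, at least 5640-fold higher in PVN. Otp, its homeodomain partner in the same lineage (chr13:94875602-94885130, plus strand), was at 273 to 405 CPM in PVN (median 365) and 1.12 to 3.80 in NTS (median 2.52), a log2 fold change of 7.16 ± 0.16 (FDR = 2.01e-43, edgeR). Pou3f2 (Brn2), a factor of the magnocellular and Crh lineages, had medians of 168 and 23.5 CPM, a log2 fold change of 2.88, and Arnt2, the dimer partner of Sim1, medians of 690 and 309 CPM, a log2 fold change of 1.08. The libraries of the nuclei did not overlap in any of these 4 genes.

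Of 13 genes listed as PVN neuron markers, all were tested and 11 were higher in PVN, where 28.3% of all tested genes were, with a median log2 fold change of 6.09. That median is 6.17 with the 3 genes at 0 in NTS placed at their bound. Those 3 genes could only be called higher in PVN, so their direction was fixed. Oxt and Trh had 17 and 19 counts over all NTS libraries and passed the filter on low counts through other groups. Their direction was therefore fixed too, and the count and median include all these members. Over all tested genes the median was 0.0016. The exceptions were Nxph4, a neurexophilin, with medians of 75.8 CPM in PVN and 225 in NTS (log2 fold change -1.49), and Cbln2, a synapse organizer, with 46.03 and 110 (log2 fold change -1.23), both called higher in NTS. Brs3, the orphan bombesin receptor whose loss makes mice obese, was at 2.97 to 12.8 CPM in PVN (median 7.57) and had no count in NTS, at least 338-fold higher.

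On the brainstem side the noradrenergic genes stood out. Dbh, dopamine beta-hydroxylase, the enzyme that turns dopamine into noradrenaline (chr2:27165233-27183200, plus strand), was at 132 to 225 CPM in NTS (median 192) and 0 to 1.05 in PVN (median 0.128), a log2 fold change of -9.33 ± 0.26 (FDR = 5.89e-38, edgeR). Phox2a, a homeodomain factor of noradrenergic neurons, was at 6.89 to 13.7 CPM in NTS (median 9.49) without a count in PVN, at least 289-fold higher in NTS. The libraries of the nuclei overlapped in neither gene. Slc6a2, the noradrenaline transporter, had 6 counts in all PVN libraries together and 3.37 to 21.5 CPM in NTS (log2 fold change -6.77). Leaving out PVN library 1 moved the ratio of mean Slc6a2 levels from 208-fold to 490.4-fold higher in NTS.

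Th, tyrosine hydroxylase, the first enzyme of catecholamine synthesis, did not separate the nuclei. It was at 51.3 to 99.1 CPM in PVN (median 73.4) and 63.9 to 88.7 in NTS (median 66.4), and the libraries overlapped. The log2 fold change was 0.07 ± 0.12 (FDR = 0.636, edgeR), with a 95% interval from -0.17 to 0.31. Of the 15 listed genes for catecholamine synthesis and transport, 10 (66.7%) were higher in NTS and 1 (6.67%) in PVN. Among all tested genes these shares were 27.8% and 28.3%. Ddc, which makes dopamine and serotonin from their precursors, had medians of 44.5 CPM in PVN and 274 in NTS (log2 fold change -2.68). Slc6a3, the dopamine transporter, was the gene higher in PVN, at medians of 1.92 and 0.671 CPM (log2 fold change 1.51), with overlapping libraries. Pnmt, the adrenaline enzyme, was at 0 to 0.5004 CPM in PVN and 0.190 to 2.61 in NTS and was called higher in NTS (log2 fold change -3.23).

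**Figure D2:**
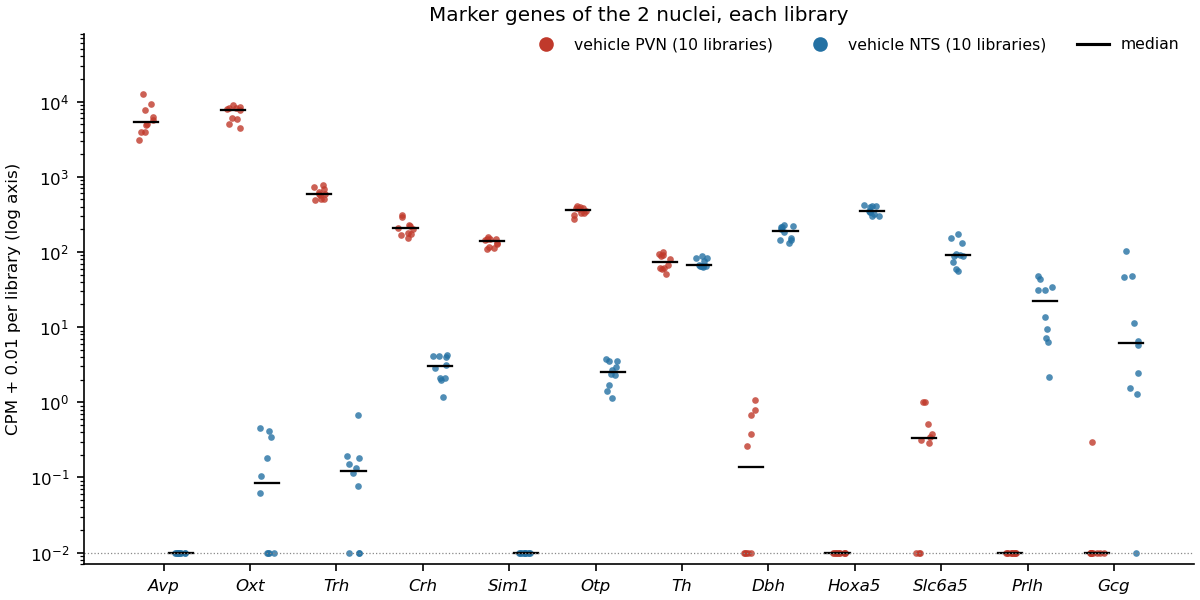
CPM plus 0.01 on a log axis for 12 marker genes, 1 point per vehicle library (red PVN, blue NTS, 10 each) with the median as a bar; points on the dotted line are at 0. Avp, Oxt, Trh, Crh, Sim1 and Otp are high in PVN, Dbh, Hoxa5, Slc6a5 and Prlh in NTS, Th overlaps, and Gcg spreads from 0 to 101 CPM within NTS.

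The Hox genes, which give hindbrain and spinal cord segments their identity, were all on the NTS side among the members tested. Of 39 listed, 18 passed the filter on low counts, all 18 were higher in NTS, and 13 of them had at least 1 CPM in NTS and no count in PVN. The members that passed did so through NTS, so their direction was fixed by the filter. Hoxa5 (chr6:52201754-52204587, minus strand) was at 305 to 422 CPM in NTS (median 347), at least 10572-fold higher than in PVN. Hoxb5 (chr11:96303336-96306121, plus strand) was at 246 to 350 CPM (median 305), at least 8673-fold higher, and Hoxb3 at 87.6 to 102 CPM (median 95.7), at least 2788-fold higher. Hoxc4 had a single count in the 10 PVN libraries and 103 to 152 CPM in NTS. Transcripts of neighbouring Hox genes overlap within a cluster and the strand setting of the counting is not known, so the values of single members are less certain than that of the group. Hoxc6 and Hoxa6 had the lowest NTS medians among the tested members, at 2.38 and 2.17 CPM.

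Other patterning genes were called mostly on the side of their list, with some crossings. Members without counts in 1 nucleus passed the filter through the other, which fixed their direction: 8 of the forebrain and 5 of the hindbrain factors. The direction of members near 0 in 1 nucleus, such as Six3, Dlx1 and Lmx1b, was fixed by the filter as well. Of 37 listed forebrain and hypothalamic factors, 32 were tested, 24 were higher in PVN and 3 higher in NTS (median log2 fold change 3.37, or 3.46 with the 8 genes at 0 in a nucleus at their bound). Fezf2, a forebrain zinc finger gene, was at 15.3 to 29.9 CPM in PVN (median 23.6) and had no count in NTS, at least 1013-fold higher in PVN. Six3 was at 14.4 to 37.1 CPM (median 22.5) with 2 counts in all of NTS, and Dlx1, a gene of forebrain inhibitory neurons, at 6.88 to 20.5 CPM (median 11.03) against 0 to 0.190. The members higher in NTS were Foxb1, Pou3f3 and Pou3f1. Pou3f1 had medians of 2.18 CPM in PVN and 25.5 in NTS (log2 fold change -3.67).

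Of 45 listed hindbrain factors, 28 were tested, 24 were higher in NTS and 4 in PVN (median -5.43, or -5.41 with the 5 genes at 0 at their bound). Lmx1b, a regulator of serotonergic and of dorsal hindbrain neurons, was at 36.6 to 49.1 CPM in NTS (median 40.3) and 0 to 0.563 in PVN. Its ratio of means was 428-fold, and 921-fold without PVN library 1. Tlx3, which selects the glutamatergic fate in dorsal hindbrain and spinal cord, was at 14.04 to 21.1 CPM in NTS without a count in PVN, at least 518-fold higher, and Irx3 had medians of 33.99 CPM in NTS and 0.351 in PVN. The Hox cofactors Meis1 (medians 50.9 in NTS and 2.93 in PVN) and Meis2 (163 and 3.499) were also higher in NTS. The 4 members higher in PVN were Lhx5, Lhx1, Ebf2 and Gata2. Lhx5 had medians of 22.98 CPM in PVN and 3.63 in NTS (log2 fold change 2.42).

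Peptide genes were called on both sides, and on the PVN side at about the share of all tested genes. Of 76 listed precursors of neuropeptides and secreted hormones, 54 were tested, 16 (29.6%) were higher in PVN and 29 (53.7%) in NTS, against 28.3% and 27.8% of all tested genes, 9 did not pass, and the median log2 fold change was -0.62. Beyond the 4 hormones above, PVN was higher in Ucn3, a urocortin that acts on the second corticotropin-releasing hormone receptor, with 7.33 to 29.8 CPM (median 19.4) in PVN and 0 to 0.141 in NTS. Pdyn, the dynorphin precursor, was at 156 to 371 CPM in PVN (median 260) and 62.5 to 150 in NTS (median 93.9), a log2 fold change of 1.42 ± 0.12 (FDR = 2.12e-15, edgeR), without overlap. Sst, which encodes somatostatin, had medians of 245 and 239 CPM and did not pass (log2 fold change 0.10, 95% interval -0.27 to 0.46).

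Several abundant peptide genes lay on the NTS side. Penk, the enkephalin precursor, was at 729 to 956 CPM in NTS (median 817) and 110 to 231 in PVN (median 131), a log2 fold change of -2.48 ± 0.12 (FDR = 4.56e-26, edgeR). Gal, which encodes galanin, was at 194 to 467 CPM in NTS (median 337) and 33.8 to 56.5 in PVN (median 39.5), a log2 fold change of -3.07 ± 0.15 (FDR = 1.16e-25, edgeR). The libraries of the nuclei overlapped in neither gene. Adcyap1, which encodes PACAP, had medians of 250 CPM in NTS and 30.1 in PVN, Cartpt, a satiety peptide gene, 314 and 82.1, and Cck, which encodes cholecystokinin, 57.6 and 2.14, all without overlap. Npy, the orexigenic neuropeptide Y gene, was at 21.5 to 30.6 CPM in NTS (median 26.9) and 0.503 to 10.2 in PVN (median 1.07). The highest PVN value was library 3, and the ratio of means went from 11.9-fold to 19.7-fold without it. Tac1, the substance P precursor, differed less (medians 132 and 53.7 CPM, log2 fold change -0.98) and overlapped.

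Gcg and Prlh mark NTS neurons that act on feeding, and both varied widely among NTS libraries. Gcg, the proglucagon gene from which the brain's glucagon-like peptide is cut (chr2:62474530-62483650, minus strand), was at 101, 47.4, 1.53, 5.82, 6.49, 0, 11.4, 1.26, 2.44 and 46.03 CPM in NTS libraries 1 to 10, and PVN held 2 counts in all. The libraries overlapped at 0. The gene was called (FDR = 8.52e-07, edgeR). It was not called with the oligodendrocyte score, the mean log2 level of mature oligodendrocyte markers in a library, as a covariate (FDR = 0.110, edgeR). The summed markers did not overlap between the nuclei. This covariate therefore cannot be cleanly told apart from region, here and below. Prlh, the prolactin-releasing peptide gene expressed in NTS noradrenergic neurons, was at 2.14 to 48.1 CPM in NTS (median 22.3) without a count in PVN, at least 663-fold higher. Nmu, which encodes neuromedin U, was steadier, at 13.5 to 29.4 CPM in NTS (median 25.1) with 3 counts in PVN. All 16 genes listed as NTS neuron markers were tested. Of these, 14 were higher in NTS and 1, Calcr, higher in PVN, while Th did not pass. The median was -8.75, or -8.46 with genes at 0 at their bound. Members without a count in PVN could only be called higher in NTS, so their direction was fixed. Gcg, Dbh, Lmx1b and Chrnb4 were near 0 in PVN and passed the filter on low counts through NTS, which fixed theirs too. The count and median include all these members.

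The machinery that processes and stores peptides was higher in PVN in part. Of 21 listed genes, 11 were higher in PVN, 4 higher in NTS and 6 did not pass, with a median of 0.46. Pcsk1, the prohormone convertase that makes the first cuts in most precursors, was at 252 to 707 CPM in PVN (median 407) and 129 to 216 in NTS (median 167), a log2 fold change of 1.39 ± 0.11 (FDR = 5.66e-16, edgeR). Cadps2, a priming factor for dense-core vesicles, had medians of 167 and 78.7 CPM (log2 fold change 1.16) and Ptprn, a vesicle membrane protein, 1594 and 732 (0.97). None of these 3 overlapped. Cpe, the carboxypeptidase that trims cut peptides, had medians of 2206 and 2288 CPM, and its 95% interval ran from -0.10 to 0.09 on the log2 scale. Chromogranin A went the other way: Chga had medians of 170 CPM in PVN and 348 in NTS (log2 fold change -0.98).

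The series concerns co-agonism at the receptors for PYY and glucagon-like peptide 1, so the baseline levels of these receptors are given first. Glp1r, the receptor for glucagon-like peptide 1 (chr17:30901817-30940791, plus strand), was at 5.24 to 24.7 CPM in PVN (median 15.98) and 0 to 1.55 in NTS (median 0.818). All PVN libraries were above all NTS libraries, with a log2 fold change of 4.21 ± 0.34 (FDR = 3.26e-16, edgeR). Npy2r, the Y2 receptor through which the shortened form of PYY acts (chr3:82538383-82548084, minus strand), was at 19.4 to 52.8 CPM in PVN (median 27.6) and 23.99 to 45.7 in NTS (median 35.1). It overlapped, and the log2 fold change of -0.31 ± 0.17 did not pass (FDR = 0.115, edgeR; 95% interval -0.64 to 0.03). Per kilobase of exon, Npy2r stood at a mean of 8.79 CPM in PVN and 10.7 in NTS, above Glp1r in both nuclei.

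Calcr, the calcitonin receptor that binds amylin together with a RAMP protein (chr6:3685680-3764714, minus strand), was at 168 to 244 CPM in PVN (median 202) and 12.4 to 26.2 in NTS (median 16.9). The log2 fold change was 3.55 ± 0.13 (FDR = 2.3e-32, edgeR), without overlap, although the gene is listed as a marker of both nuclei. Of its partners, Ramp3 was higher in NTS (medians 23.5 and 3.87 CPM, log2 fold change -2.68), and Ramp1 did not pass (medians 71.4 in PVN and 69.6 in NTS). Per kilobase of exon, Calcr stood at a mean of 51.9 CPM and Glp1r at 2.60 in PVN, and at 4.46 and 0.134 in NTS. Cckar, the cholecystokinin A receptor, was at 27.02 to 73.9 CPM in PVN (median 41.99) and 0.565 to 4.05 in NTS (median 1.29), a log2 fold change of 4.79 ± 0.28 (FDR = 5.97e-22, edgeR). Its ligand gene Cck lay the other way, higher in NTS.

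Gfral, the receptor for the stress cytokine GDF15 and known from the area postrema and NTS, was at 8.18 to 21.5 CPM in NTS (median 12.6) and 0 to 0.168 in PVN, with 4 counts in PVN in all. The log2 fold change was -7.85 ± 0.34 (FDR = 3.54e-30, edgeR), without overlap. Sctr, the secretin receptor, had medians of 10.9 CPM in NTS and 1.32 in PVN (log2 fold change -3.01). Ghsr, the ghrelin receptor, had medians of 13.5 and 6.401 (log2 fold change -1.04), with overlap. The melanocortin receptors were higher in PVN: Mc4r had medians of 15.3 CPM in PVN and 6.51 in NTS (log2 fold change 1.07), and Mc3r 3.16 and 0.785 (2.04). Mc4r overlapped through NTS library 1 at 15.6 CPM, and its log2 fold change was 1.21 without the libraries numbered 1. Npy1r (medians 22.5 in PVN and 11.9 in NTS) and Hcrtr2, an orexin receptor (23.1 and 6.11), were also higher in PVN, and the other orexin receptor gene Hcrtr1 (3.80 and 9.84) was higher in NTS. Lepr, the leptin receptor, was low in both, at medians of 2.40 and 2.48 CPM, and did not pass (FDR = 0.660, edgeR; 95% interval -0.56 to 0.32).

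Of 33 listed receptors for appetite-related and gut peptides, 32 were tested. Of these, 15 (46.9%) were higher in PVN and 9 (28.1%) in NTS, and 8 did not pass. Among all tested genes 28.3% were higher in PVN and 27.8% in NTS, so the NTS count was near that share. Their median log2 fold change was 0.41, or 0.44 with Brs3 at its bound. The largest differences on each side were those of Brs3, Cckar, Glp1r and Calcr in PVN and of Gfral, Sctr and Ramp3 in NTS.

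**Figure D3:**
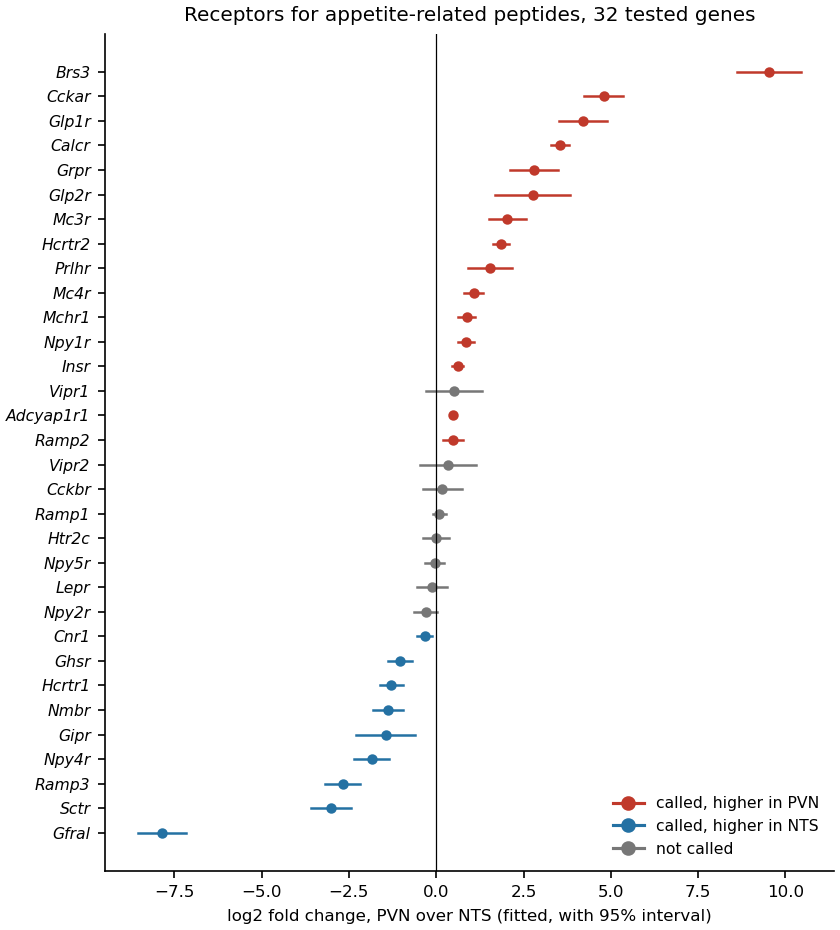
Fitted log2 fold change of PVN over NTS (horizontal) with its 95% interval for the 32 tested receptors for appetite-related peptides, red where called higher in PVN (15), blue higher in NTS (9), grey not called (8). Brs3 had no count in NTS, so its fitted value depends on the prior count; Glp1r and Calcr lie at 4.21 and 3.55, Npy2r at -0.31 and Gfral at -7.85.

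Other peptide receptors divided evenly, with 17 of 39 tested higher in PVN and 16 higher in NTS (42 listed, median 0.10). Agtr1a, the angiotensin receptor of thirst and pressure circuits, had medians of 59.7 CPM in PVN and 12.2 in NTS (log2 fold change 2.35). Npr3, a natriuretic peptide clearance receptor, had 20.1 and 0.893 (4.68), and Sstr2, a somatostatin receptor, 49.3 and 9.75 (2.31). None overlapped. Receptors for the PVN's own hormones were low or higher in NTS. Oxtr had medians of 1.63 CPM in PVN and 3.74 in NTS (log2 fold change -1.04), Crhr1 2.54 and 5.75 (-1.39), and Avpr1a 7.81 and 6.60 without passing (FDR = 0.170, edgeR). Avpr1b, at a median of 1.12 CPM in PVN, had 1 count in NTS. Tacr3, the neurokinin B receptor, was higher in NTS (51.5 and 18.1).

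Among 44 tested receptors for monoamines and acetylcholine (50 listed), 11 (25%) were higher in PVN and 18 (40.9%) in NTS, against 28.3% and 27.8% of all tested genes (median -0.14, or -0.13 with Chrna6, at 0 in PVN, at its bound). With the oligodendrocyte score as a covariate these were 12 and 14, and the median turned to 0.17. Hrh1, a histamine receptor, led the PVN side at 60.7 to 99.6 CPM (median 91.2) against 11.8 to 19.7 (median 16.2), a log2 fold change of 2.36 ± 0.10 (FDR = 4.06e-30, edgeR). Chrnb4 and Chrna3, subunits of the ganglionic type of nicotinic receptor whose genes are neighbours, were higher in NTS. Chrnb4 was at 15.5 to 35.4 CPM in NTS (median 22.5) and 0 to 0.766 in PVN, a 142-fold ratio of means that became 238-fold without PVN library 3. Chrna3 had medians of 46.3 and 3.36 CPM. Chrm3, a muscarinic receptor (34.1 and 5.25), Drd5 (11.03 and 1.01) and Adra2a, the autoreceptor of noradrenergic neurons (72.4 and 34.7), were also higher in NTS. None of these 6 genes overlapped.

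Among fast transmitters, genes of inhibitory neurons separated the nuclei and the main glutamate transporter did not. Slc17a6, the vesicular glutamate transporter of most subcortical neurons, was at 336 to 585 CPM in PVN (median 421) and 425 to 494 in NTS (median 452), overlapped and did not pass (log2 fold change -0.10 ± 0.08, FDR = 0.250, edgeR). Slc32a1, which loads GABA and glycine into vesicles, was at 22.8 to 75.4 CPM in PVN (median 33.7) and 120 to 223 in NTS (median 149), a log2 fold change of -2.09 ± 0.18 (FDR = 3.47e-15, edgeR). Gad1, a GABA-synthesizing enzyme, moved with it (medians 64.4 and 301, log2 fold change -2.06), both without overlap. Its paralog Gad2 differed far less, with medians of 196 and 249 CPM, overlap and a log2 fold change of -0.33 ± 0.12 (FDR = 0.0179, edgeR). With the oligodendrocyte covariate it turned to 0.0691 and did not pass (FDR = 0.704, edgeR). Per kilobase of exon, the mean Gad1 and Gad2 levels were 9.51 and 35.3 CPM in PVN and 38.9 and 44.1 in NTS.

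Slc6a5, the glycine transporter of glycinergic terminals, was at 55.4 to 173 CPM in NTS (median 89.9) and 0 to 1.01 in PVN (median 0.322), a log2 fold change of -7.996 ± 0.37 (FDR = 8.51e-26, edgeR). Slc17a8, a vesicular glutamate transporter of scattered cell groups, was at 15.8 to 34.4 CPM in NTS (median 25.8) and 0 to 1.26 in PVN, a 77.2-fold ratio of means. The libraries of the nuclei overlapped in neither. Slc17a7, the cortical and thalamic glutamate transporter, was at 57.9 CPM in PVN library 3, at 10.8 or less in the other 9 PVN libraries and at 0 to 14.4 in NTS, and did not pass (FDR = 0.362, edgeR), but was called higher in PVN with the oligodendrocyte covariate (FDR = 2.63e-04, edgeR). Its ratio of means, 2.53-fold higher in PVN, became 1.64-fold higher in NTS without PVN library 3 and 4.48-fold higher in PVN without NTS library 2. Of the 18 listed genes for fast transmitters, 12 (66.7%) were higher in NTS and 3 (16.7%) in PVN (median -0.55). Among all tested genes these shares were 27.8% and 28.3%. With the oligodendrocyte covariate the counts were 8 in NTS and 3 in PVN (median -0.19).

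Cholinergic genes were higher in NTS in 5 of 6, with Ache, the breakdown enzyme, as the exception (medians 489 CPM in PVN and 324 in NTS, log2 fold change 0.47). Chat, which makes acetylcholine, was at 6.30 to 26.004 CPM in NTS (median 10.6) and 0 to 0.511 in PVN. The gene Slc18a3 lies inside the Chat gene, and reads of this pair may have been shared in counting; it had medians of 16.96 and 0 CPM, and its ratio of means went from 318-fold to 532-fold without PVN library 1. The summed level of the 13 motor neuron genes, which include Chat, was 305 to 634 CPM in NTS and 31.7 to 53.6 in PVN; motor neurons of the dorsal vagal nucleus lie next to the NTS, and their part in these values was not tested.

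Receptor subunits for the fast transmitters were called in both directions. The list for GABA-A and glycine receptors also holds a pair of GABA-B subunits (22 listed). Of its 20 tested members, 12 (60%) were higher in PVN and 7 (35%) in NTS (median 0.34). Among all tested genes these shares were 28.3% and 27.8%. Gabrb2, a beta subunit, had medians of 52.6 CPM in PVN and 16.7 in NTS and was higher in PVN (log2 fold change 1.56), without overlap. The glycine receptor subunit gene Glra2 (medians 39.9 and 28.5) was higher in PVN with overlap. Its relative Glra1 (7.60 and 18.7) and the extrasynaptic subunit Gabrd (0.644 and 6.80) were higher in NTS. Of 25 glutamate receptor genes, 11 (44%) were higher in PVN and 10 (40%) in NTS (median 0.07). Grin2b had medians of 132 and 79.9 CPM, and Gria1, an AMPA receptor subunit, 436 and 655.

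Ion channel genes were called in both directions, on the PVN side near the 28.3% of all tested genes. Of 65 tested potassium channel genes (67 listed), 19 (29.2%) were higher in PVN and 29 (44.6%) in NTS (median -0.12), and of 52 tested sodium, calcium, HCN and TRP channel genes (55 listed), 18 (34.6%) and 19 (36.5%), with a median of -0.05. With the oligodendrocyte covariate the counts were 21 and 20 (median 0.13) for the first list and 13 and 10 (median 0.06) for the second. Kcnmb4, a subunit that slows large-conductance calcium-activated channels, was at 82.4 to 111 CPM in PVN (median 97.4) and 12.8 to 19.99 in NTS (median 14.3), a log2 fold change of 2.70 ± 0.09 (FDR = 1.44e-36, edgeR). Kcnj12, an inward rectifier, had medians of 43.5 and 6.33 CPM (log2 fold change 2.86). On the NTS side Scn11a, a sodium channel known from sensory neurons, had medians of 9.63 CPM in NTS and 0.318 in PVN (log2 fold change -4.97), and Kcng4, a modifier subunit, 13.7 and 0.326 (-5.20). Kcnj10, the potassium channel of astrocytes and oligodendrocytes, was at 647 to 1066 CPM in NTS and 161 to 263 in PVN.

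Genes of large, fast-firing axons were higher in NTS together with myelin genes. Of 14 listed, 12 were higher in NTS and 1 in PVN (median -1.35). The summed oligodendrocyte markers lay at 1080 to 1551 CPM in PVN and 2514 to 7434 in NTS, and with their score as a covariate the counts were 4 and 4 and the median 0.02. Their part in the difference was not tested. Nefl, the light neurofilament, had medians of 712 CPM in NTS and 299 in PVN (log2 fold change -1.19). Pvalb, a calcium-binding protein of fast-firing neurons, was at 11.3 to 135 CPM in NTS (median 27.04) and 0.412 to 6.13 in PVN (log2 fold change -5.32), without overlap. Its ratio of means was 31.3-fold, and 49.7-fold without PVN library 3. Scn4b, a sodium channel subunit of such neurons, was at 2.70 to 107 CPM in NTS and 0.838 to 6.81 in PVN and overlapped (log2 fold change -3.83); with the covariate its direction turned, at 1.58.

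Among receptors for steroid and thyroid hormones, 8 of 18 tested genes were higher in PVN and 6 in NTS (20 listed, median 0.05), or 9 and 4 with the oligodendrocyte covariate (median 0.50). Esr2, estrogen receptor beta, was at 2.99 to 10.9 CPM in PVN (median 6.15) and 0 to 0.571 in NTS (median 0.104), a log2 fold change of 5.04 ± 0.43 (FDR = 3.74e-16, edgeR). Esr1, estrogen receptor alpha, was higher in NTS (medians 23.03 and 13.9, log2 fold change -0.71), with overlap. Nr3c1, the glucocorticoid receptor through which the PVN is held in check, had medians of 250 CPM in PVN and 93.9 in NTS (1.30), and Thrb, a thyroid hormone receptor, 55.2 and 18.8 (1.51). Neither overlapped. Rarb, a retinoic acid receptor of the hindbrain, had medians of 4.02 in PVN and 50.5 in NTS (-3.48).

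Imprinted genes, expressed from 1 parental allele and many of them active in the hypothalamus, were mostly higher in PVN. Of 34 tested (41 listed), 20 (58.8%) were higher in PVN and 3 (8.82%) in NTS, Sgce, Igf2 and Ddc (median 0.36). Among all tested genes 28.3% were higher in PVN and 27.8% in NTS. Calcr, described above, is on this list too. Dlk1, which encodes a membrane protein of the Notch family, was at 59.6 to 120 CPM in PVN (median 93.9) and 3.22 to 11.7 in NTS (median 8.90), a log2 fold change of 3.37 ± 0.16 (FDR = 2.99e-26, edgeR). Nnat, neuronatin, had medians of 1511 and 565 CPM (1.47), Peg10 729 and 226 (1.58), and Magel2, a gene of the Prader-Willi region, 105 and 45.4 (1.21), all without overlap. Ndn, its neighbour, differed less (1112 and 960, log2 fold change 0.35, FDR = 0.0379, edgeR) and overlapped. Gnas did not pass (4216 and 4538 CPM, FDR = 0.0777, edgeR).

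Marker genes of cell types were summed in each library. The summed CPM of 14 pan-neuronal genes was 10347 to 11569 in PVN (median 11116) and 9687 to 12067 in NTS (median 11179), and the means of log2 sums did not differ detectably (permutation test, adjusted p = 0.736). Of the 14, 3 were called higher in PVN and 6 in NTS, and the mean of their log2 CPM differed by -0.0725 (PVN minus NTS) and passed (permutation test, adjusted p = 0.0251). The 18 mature oligodendrocyte markers summed to 1080 to 1551 CPM in PVN (median 1188) and 2514 to 7434 in NTS (median 5874), without overlap (adjusted permutation p = 4e-05, from the smallest p that 100000 resamples can give). All 18 were higher in NTS, with a median log2 fold change of -1.99. Mbp, myelin basic protein, had medians of 373 CPM in PVN and 2109 in NTS. NTS libraries 3, 7, 8 and 9 had the lowest sums (2514 to 3630) and the other 6 the highest (5863 to 7434). A covariate for this score left 6333 genes called in place of 8064, of which 5462 were called in the same direction in both fits and 31 in opposite directions.

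Astrocyte markers summed to 3549 to 5937 CPM in PVN (median 4041) and 6527 to 9451 in NTS (median 7834), without overlap, and 15 of 17 were higher in NTS (median -1.20). Gfap, the astrocyte intermediate filament, was at 86.6 to 146 CPM in PVN (median 97.2) and 270 to 750 in NTS (median 494), a log2 fold change of -2.14 ± 0.15 (FDR = 5.28e-18, edgeR). Slc1a3, the glial glutamate transporter, was one of 2 markers higher in PVN (medians 763 and 615), the other being Itih3. Microglial markers were higher in NTS in 11 of 16 (median -0.43), with sums of 327 to 645 CPM in PVN and 453 to 629 in NTS that overlapped through PVN library 10. C1qb, a complement gene, had medians of 47.4 CPM in NTS and 23.9 in PVN, and P2ry12, a marker of resting microglia, did not pass (FDR = 0.318, edgeR). Blood vessel markers were the reverse. Their sum was 823 to 1106 CPM in PVN and 412 to 582 in NTS. Of 18 members, 12 (66.7%) were higher in PVN, against 28.3% of all tested genes, and none in NTS. The median was 0.84. Rgs5, a pericyte gene, had medians of 219 and 91.1 CPM, and Cldn5, a tight junction protein of endothelium, 60.3 and 25.2.

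**Figure D4:**
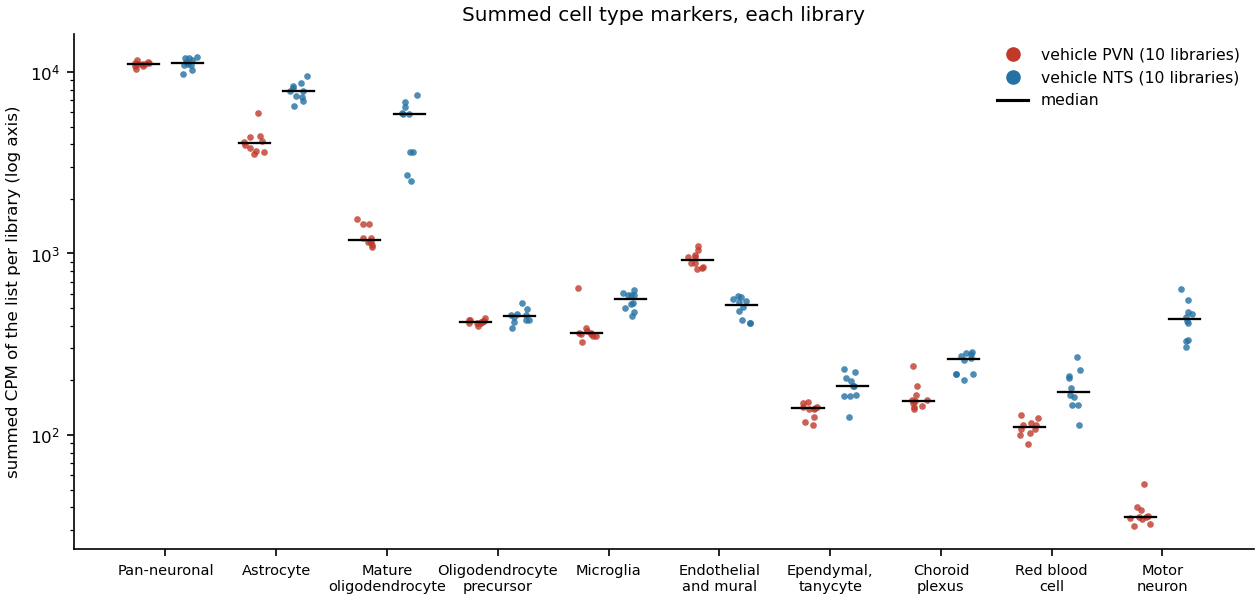
Summed CPM of each marker list per vehicle library on a log axis (red PVN, blue NTS, 10 libraries each, bars mark medians). Pan-neuronal sums overlap, with medians of 11116 CPM in PVN and 11179 in NTS, mature oligodendrocyte and astrocyte sums are higher in every NTS library than in any PVN library, and endothelial and mural sums are higher in every PVN library.

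Of 18 such sums, 16 passed the permutation test at an adjusted p under 0.05, 14 higher in NTS and 2 higher in PVN. A sum follows its most abundant members. With the mean of log2 CPM instead, the direction turned and passed for the choroid plexus and area postrema lists. It turned without passing for the suprachiasmatic, thalamic and arcuate lists, and oligodendrocyte precursors no longer passed. Markers of neighbouring structures were summed in the same way. The arcuate list summed to 13.7 to 33.2 CPM in PVN and 37.2 to 47.3 in NTS, where Npy alone stood at a median of 26.9, and Agrp and Pomc were at medians of 1.65 and 5.67 CPM in PVN. The suprachiasmatic list summed to 37.3 to 62.8 CPM in PVN and 97.3 to 179 in NTS, where Prokr2 had a median of 77.5, and Vip, a defining gene of that nucleus, was at a median of 0 in PVN. The thalamic sum was 241 to 373 CPM in PVN, highest in library 3, and 288 to 380 in NTS. It was higher in NTS (permutation test, adjusted p = 0.00283), and its member Calb2 had means of 133 CPM in PVN and 161 in NTS. Tph2, the serotonin enzyme of the raphe, had medians of 2.796 CPM in NTS and 0.535 in PVN. The area postrema list summed to 190 to 255 CPM in PVN and 53.7 to 93.9 in NTS, with Calcr as the bulk of the PVN sum and 4 of its 6 genes higher in NTS. For none of these neighbours was the part in a gene's difference tested.

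Of all tested genes, 28.3% were higher in PVN and 27.8% in NTS. Among 21 genes induced by neuronal activity the counts were 12 (57.1%) and 3 (14.3%), with a median of 0.72. Without the libraries numbered 1 these were 13 and 3 (median 0.79), and with the oligodendrocyte covariate 8 and 3 (median 0.35). Fosl2 was at 60.3 to 204 CPM in PVN (median 98.5) and 1.96 to 47.5 in NTS (median 5.84), a log2 fold change of 3.53 ± 0.34 (FDR = 4.25e-13, edgeR) that was 4.19 without those libraries. Its ratio of means, 11.02-fold, became 19.2-fold without NTS library 1 alone. Fos was at 28.7 to 84.4 CPM in PVN (median 63.8) and 6.97 to 75.3 in NTS (median 16.3) and overlapped (log2 fold change 1.51, or 1.93 without those libraries). Nr4a1 (1.97, or 2.16 without them) and Egr1 (1.19, or 1.52 without them) were higher in PVN as well. Fosb did not pass with all libraries (log2 fold change 0.72, FDR = 0.297, edgeR) and was called higher in PVN without those numbered 1 (2.07, FDR = 4.3e-05, edgeR). Npas4 passed in neither fit (FDR = 0.0573 and 0.0697, edgeR). Egr2, which is also a Schwann cell gene, was higher in NTS (-2.17, or -2.58 without them). In treated mice, where the peptides were given, Fos did not pass (log2 fold change -0.10, FDR = 0.811, edgeR). That fit included the treated libraries numbered 1, whose Fosb levels went against the rest of their groups. The treated Fos value without them is not given here.

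Hormone-responsive and clock genes showed smaller and mixed differences. Of 16 glucocorticoid-responsive genes, 4 (25%) were higher in each nucleus (median -0.20), near the 28.3% and 27.8% of all tested genes. With the oligodendrocyte covariate 1 was higher in PVN and 2 in NTS (median 0.05). Fkbp5 had medians of 59.3 CPM in PVN and 32.8 in NTS, while the metallothioneins Mt1 (132 and 441) and Mt2 (90.9 and 335) were higher in NTS without overlap. Of 19 clock genes, 5 (26.3%) were higher in PVN and 7 (36.8%) in NTS (median -0.04). With that covariate the counts were 6 and 4 (median 0.07). Among the clock genes were Per1 (65.9 and 45.9 CPM) and Dbp (103 and 139). Of 18 class I antigen and interferon genes, 4 (22.2%) and 5 (27.8%) were called (median -0.01), or 1 and 5 with that covariate. Without the covariate these shares too were near those of all tested genes.

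Ribosomal protein and cholesterol synthesis genes were called mostly in 1 direction each, by small amounts. Of 76 tested cytosolic ribosomal protein genes (77 listed), 59 were higher in PVN, 1 (Rpl28) in NTS and 16 did not pass, with a median log2 fold change of 0.33. The count higher in PVN was 54 with scaling to library totals alone and 29 with the oligodendrocyte covariate. Rpl10 differed most, with medians of 264 and 134 CPM (log2 fold change 1.03); ribosomal protein genes have many near-identical pseudogenes, so single values are uncertain. Of 21 cholesterol synthesis genes, 20 were higher in NTS, none in PVN, and Ebp did not pass (median -0.82); 20 and 0 were called with the oligodendrocyte covariate (median -0.74). Hmgcs1, an early enzyme, had medians of 489 CPM in NTS and 260 in PVN (log2 fold change -0.94 ± 0.06, FDR = 1.82e-22, edgeR), and Tm7sf2, a late one, 34.5 and 9.26 (-1.93). Neither overlapped.

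Cell surface and guidance genes were called in both directions. Of 46 tested axon guidance genes (47 listed), 14 (30.4%) were higher in PVN and 19 (41.3%) in NTS (median -0.12), against 28.3% and 27.8% of all tested genes. With the oligodendrocyte covariate these were 16 and 12, and the median turned to 0.12. Plxnd1, a semaphorin receptor, had medians of 53.3 CPM in PVN and 11.3 in NTS, Slit2, a repellent, 170 and 56.003, and Nrp2, a co-receptor, 65.6 and 214, none with overlap. Of 26 tested cadherins (27 listed), 14 (53.8%) were higher in PVN and 7 (26.9%) in NTS (median 0.27). The NTS count was near the share of all tested genes. With the covariate the cadherin counts were 14 and 3. Pcdh17 had medians of 341 CPM in PVN and 121 in NTS. Other genes with large ratios included Irs4, an insulin receptor substrate of the hypothalamus, at 159 to 231 CPM in PVN and 7.76 to 19.1 in NTS, Foxp2, a transcription factor, at medians of 66.9 and 2.53, and Reln, a secreted matrix protein, at 224 and 49.6. On the NTS side Prok1, a secreted prokineticin, was at 49.3 to 208 CPM against 0 to 0.335, and Dao, an enzyme that breaks down D-serine, at 18.1 to 38.7 against 0 to 0.464. The Dao ratio of means rested on PVN library 6, being 463-fold with it and 2526-fold without it.

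**Figure D5:**
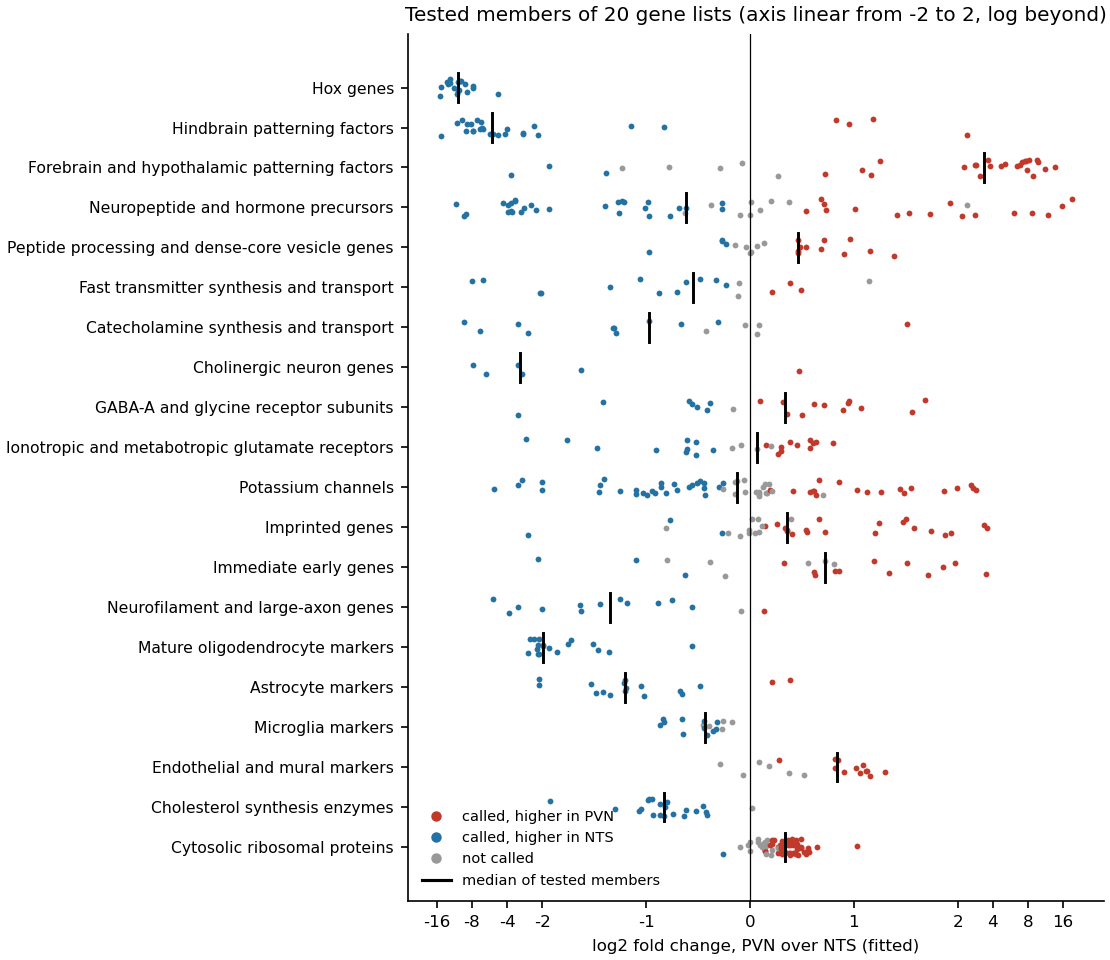
Fitted log2 fold change of PVN over NTS for each tested member of 20 gene lists (points; red called higher in PVN, blue higher in NTS, grey not called), with the median of the tested members as a bar; the axis is linear from -2 to 2 and logarithmic beyond. Hox members lie wholly on the NTS side, most ribosomal protein genes lie between 0 and 1, and the potassium channels spread over both sides around a median of -0.12.

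Within a nucleus, the most variable genes were of different kinds. The median SD of log2 CPM over the 10 libraries was 0.186 in PVN (8457 genes) and 0.149 in NTS (8639 genes). In PVN the largest SDs were those of Nr4a1, Nrgn and Btg2, and Avp, with a maximum of 12798 CPM in library 5, was among the first 10. In NTS they were those of Gcg, Alb and Scn4b, and Prlh, Pvalb and Fos were among the first 10 too. PVN library 3 held the highest Nrgn level, 75.8 CPM against a median of 18.5, together with its Slc17a7 and Npy values. Lars2, a mitochondrial tRNA synthetase gene, was at 12897 and 12544 CPM in NTS libraries 7 and 8, at 1024 to 3844 in the other NTS libraries and at 621 to 1231 in PVN.

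Gene pairs were followed over the 10 libraries of a nucleus, in 6 relations chosen after the values were seen. In PVN, Avp and Oxt on the log2 scale gave Pearson's r = 0.76 (permutation p = 0.0108, adjusted 0.0324) and Spearman's rho = 0.77 (permutation p = 0.0122, adjusted 0.0366). The r was 0.89 without the 2 libraries farthest from the Avp median and 0.61 in the 7 libraries of the main number run. Avp and Crh did not covary detectably (r = -0.05, permutation p = 0.898, adjusted 0.898; rho = 0.02, permutation p = 0.973, adjusted 0.973; r = 0.59 without the 2 farthest libraries and -0.33 in the main run).

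In NTS, Gcg and Prlh gave r = 0.24 (permutation p = 0.504, adjusted 0.605; rho = 0.31, permutation p = 0.389, adjusted 0.466; r = -0.08 without the 2 farthest libraries). Dbh and Prlh gave r = 0.66 (permutation p = 0.0410, adjusted 0.0820; rho = 0.60, permutation p = 0.0738, adjusted 0.148; r = 0.50 without the 2 farthest). The oligodendrocyte sum and the mean log2 level of the large-axon genes rose together in NTS (r = 0.94, permutation p = 8e-05, adjusted 4.8e-04; rho = 0.92, permutation p = 4.4e-04, adjusted 0.00264; r = 0.90 without the 2 farthest). In PVN the same relation did not pass (r = 0.40, permutation p = 0.250, adjusted 0.375; rho = 0.33, permutation p = 0.346, adjusted 0.466), with r = 0.85 without the 2 farthest libraries and 0.84 in the main run.

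The treated libraries entered the joint fit behind the vehicle calls but share no sample with the vehicle groups. The contrast was repeated in a fit on these treated libraries alone. Of 13727 genes tested there, 8591 (62.6%) differed between PVN and NTS. Of the 7809 vehicle calls tested in both, 7018 (89.9%) were called in the same direction and 2 in the opposite one, and these 7018 were 81.7% of the treated calls. Of 770 genes with a vehicle difference over 2-fold that were tested there, 769 were called in the same direction. All 40 genes with the largest vehicle ratios were called in the same direction in treated mice. The medians there were 4.68 for PVN neuron markers, -0.81 for cholesterol synthesis and 0.39 for imprinted genes.

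The regional difference itself was compared between vehicle and treated mice by an interaction contrast in the joint fit. It passed for 13 genes (0.0904% of 14379; the smallest FDR was 9.84e-04 in edgeR, and 616 genes had an unadjusted p under 0.05). Without the libraries numbered 1 it passed for 62, all 13 included. Cyp51, a cholesterol synthesis enzyme, had means of 131 ± 25.5 CPM (SD, n = 10) in vehicle PVN, 205 ± 11.1 in vehicle NTS, 192 ± 31.3 in treated PVN and 190 ± 17.2 in treated NTS, an interaction of -0.66 on the log2 scale (FDR = 9.84e-04, edgeR). Hs3st2, a heparan sulfate enzyme, had means of 4.92 ± 4.29 and 19.7 ± 2.94 CPM in vehicle PVN and NTS and 19.3 ± 7.495 and 23.2 ± 2.19 in treated PVN and NTS (-1.64, FDR = 0.0298, edgeR). The others with a negative term were Akap7, Fam117a, Fam222b, Ift57, Orc1, Pde9a, Prss23, Rnf169, Tmem200a and Zfp516, all with a higher mean in treated than in vehicle PVN. Trh alone had a positive term, 5.31 (FDR = 0.0430, edgeR). It rested on treated NTS library 9, at 44.2 CPM where the other 9 were at 0 to 1.62; without that library the term was 1.38 and did not pass.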

How the data were processed

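RNA from laser-captured PVN and NTS was sequenced with a stranded TruSeq mRNA kit, per the labels' protocols. The reads were handled with bcl2fastq 2.20.0.422 and STAR 2.5.2a on GRCm38, per the submitters' processing notes. The counter, its strand setting and the annotation release are not given in the sources used here. The deposited table holds whole-number counts per gene for all 59 libraries, not normalized by the authors; 21858 of its 21935 IDs matched the GENCODE annotation.

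All 59 libraries were fitted in 6 groups with edgeR 4.0.16 (R 4.3.3): filterByExpr (minimum count 10, minimum total 15), TMM scaling, the quasi-likelihood test, and Benjamini-Hochberg adjustment over all 14379 tested genes at 0.05, two-sided. Differences over 2-fold were tested with glmTreat. The treated nuclei were fitted on their own 20 libraries. Summed markers and library totals were compared by permutation (100000 resamples, scipy 1.17.1). Tests were checked on simulated data. At least-folds take 3 counts over the group as the level of a group without counts. Alternatives used DESeq2 1.42.0, limma 3.58.1, other scalings and filters, covariates and left-out libraries.

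Members and gene lists were chosen with earlier results of these data known. Named genes are, per direction, the 20 called genes with the largest ratios whose higher group averaged 20 CPM or more, in each list up to 6 called members with the largest and 3 tested members with the smallest absolute log2 fold change, a fixed set of marker, receptor and transmitter genes, and the 10 most variable genes per nucleus and the 10 with the largest CPM difference per direction. Other genes named, such as Gal, Penk, Cck, Ucn3, Nr3c1 and Hmgcs1, were chosen after their values were seen. A few list members are left unreported.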

Additional observations from a re-analysis of the deposited data

Results flagged for a closer look

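Of 113 groups of 10 libraries examined for 1 value far from the rest, 11 held one; chance gives about 1 in 20. Vehicle PVN library 10 held 5 of them: it was highest in Slc17a6 at 585 CPM (others 336 to 433), in Sytl4 at 105 CPM (others 44.6 to 62.0), and in the sums of motor neuron genes at 53.6 CPM (others 31.7 to 40.01), astrocyte markers at 5937 CPM (others 3549 to 4430) and microglia markers at 645 CPM (others 327 to 387). In other PVN libraries the far value was the lowest: Fezf2 at 15.3 CPM in library 3 (others 22.6 to 29.9), Foxp2 at 43.7 CPM in library 2 (others 61.7 to 86.8) and Cntnap3 at 16.1 CPM in library 8 (others 29.3 to 44.8). In NTS, Mc4r was at 15.6 CPM in library 1 (others 5.28 to 8.04), Cartpt at 140 CPM in library 2 (others 249 to 408) and the thalamic sum at 288 CPM in library 9 (others 329 to 380).

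The region difference of Trh differed between vehicle and treated mice by 5.31 on the log2 scale (FDR = 0.0430, edgeR), through treated NTS library 9, as described above.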

How the results depend on the processing

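The number of called genes stayed within 1.5 times 8064 under every alternative run, from 6333 with the oligodendrocyte score as a covariate to 8894 with limma-voom, and was 8180 with DESeq2, 8008 with library totals alone and 7842 without the libraries numbered 1. The interaction count was 62 without those libraries. With the 20 vehicle PVN and NTS libraries alone, 7125 of 13496 tested genes were called. The mean of log2 CPM was also used in place of the sum. With it the PVN minus NTS difference reversed and passed for choroid plexus (0.586) and area postrema (-1.48) markers. It changed sign without passing for suprachiasmatic (0.0938), thalamic (0.0599) and arcuate (0.112) markers (permutation test, adjusted p = 0.555, 0.727 and 0.396). It no longer passed for oligodendrocyte precursors (-0.0181), and passed for cerebellar (-0.763) and pan-neuronal (-0.0725) genes. With the oligodendrocyte covariate, log2 fold changes turned positive for Alas2 (0.28), Cplx1 (0.29), Gad2 (0.0691), Kcnc1 (0.0808), Mal (0.44), Mobp (0.24), Olig2 (0.16), Ptgds (0.50), Scn4b (1.58), Sgk1 (0.15), Spp1 (0.42), Syt2 (0.16), Tspan2 (0.31) and Vamp1 (0.14), and the cause was not tested. Mal, Mobp and Tspan2 are members of the score, so their values with it were constrained by the fit itself. The summed score markers did not overlap between the nuclei, so the covariate cannot be cleanly told apart from region. No called gene that was followed changed sign with another scaling, with DESeq2 or with limma-voom. None did with the 20 libraries alone or without the libraries numbered 1. Ratios of means of the uncalled genes Slc17a7, Egr4 and Sox14 turned when 1 library was left out (PVN 3, NTS 1 and NTS 2). No paired analysis was possible because the labels do not tie PVN and NTS libraries to animals and their replicate numbers only name samples.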
